A study of Homo sapiens with 6 samples.

Results

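The control clone OV3/SCR is a line of OVCAR-3 human ovarian carcinoma cells that carries a scrambled shRNA, and its transcriptome was described here on its own, with no contrast to any other cells. Its members were chosen by their labels and are 3 of the 6 RNA-seq libraries of a study of cyclooxygenase-1 (COX-1) in ovarian cancer. Parental OVCAR-3 cells were stably transfected with the HuSH-29 pRS plasmid coding for the scrambled hairpin, selected with puromycin and cloned. The labels give the COX-1 status of OV3/SCR as wild-type. The clone was grown in RPMI-1640 medium with 10% fetal bovine serum, and each library came from a separately harvested, subconfluent population. The 3 libraries (passages 1 to 3) are therefore passages of 1 clone in 1 medium, and their spread describes passages and not clones, tumors or patients. The table lists 34811 genes.

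OVCAR-3 cells are used as a model of high-grade serous ovarian cancer, a tumor thought to arise largely from the secretory epithelium of the fallopian tube. That epithelium develops from the Müllerian duct, and it is marked by simple keratins, cell adhesion and tight junction genes, the transcription factor PAX8 and secreted or membrane antigens such as MUC16, which carries the serum marker CA-125. Like other cultured cells that divide, such cells hold large amounts of the mRNAs for ribosomal proteins, glycolytic enzymes, chaperones and cytoskeletal proteins, and polyadenylated transcripts of the mitochondrial genome.

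The libraries held 25783871, 25505884 and 25291505 counts in passages 1, 2 and 3. Levels of 1 gene are given as CPM, counts scaled to the library total, as mean ± SD of the 3 libraries. Levels of different genes are compared per length, as TPM, computed from the counts divided by the joined exon length of each gene and scaled to a fixed sum. A gene was taken as present where it had more than 3 counts in every library and a mean of at least 1 CPM, as absent where it had 3 counts or fewer in every library, and as at trace level otherwise. In these libraries 3 counts correspond to 0.116 to 0.119 CPM, so an absent gene may still have been transcribed below that level. These limits cover counting error only, because reads were counted without molecular identifiers. In a bulk sample, transcription in few cells and a low level in every cell cannot be told apart.

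Of the 34811 genes, 14563 were present, 8734 were at trace level and 11514 were absent, of which 2321 had no count in any of the 3 libraries. A total of 19431 genes had more than 3 counts in each library. Protein-coding genes made up most of the present set. Among 17176 listed protein-coding genes, 12494 (72.7%) were present, 2679 (15.6%) were at trace level and 2003 (11.7%) were absent, with a median of 14.7 CPM. At the upper end, 77 genes of all classes lay at or above 1000 CPM and 2209 lay between 100 and 1000 CPM.

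Protein-coding mRNA took 97.0% ± 0.0752 (SD, n = 3) of all counts. Of the gene classes, the mitochondrially encoded genes were the most concentrated. The 37 genes of the mitochondrial genome include ribosomal and transfer RNA genes. Together they held 7.42%, 8.35% and 8.20% of the counts in passages 1, 2 and 3, with passage 1 the lowest. The 13 protein-coding genes among them held 7.55% ± 0.508 (SD, n = 3). The 77 ribosomal protein genes of the cytosolic ribosome held 4.67%, 4.53% and 4.59%. All other protein-coding genes held 85.4%, 84.5% and 84.7%, long noncoding RNA genes 1.39%, 1.40% and 1.35%, and pseudogenes 0.867%, 0.925% and 0.846%. Small RNA genes held 0.0543% ± 0.00441 and replication-dependent histone genes, whose mRNAs mostly lack a poly(A) tail, held 0.00883% ± 0.000236 (SD, n = 3). The order of the classes was the same in every library. On the TPM scale, which divides by length, the mitochondrially encoded genes held 31.6% ± 1.54 and pseudogenes 4.16% ± 0.272, while the other protein-coding genes held 55.4% ± 1.38 (SD, n = 3).

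**Figure D1:**
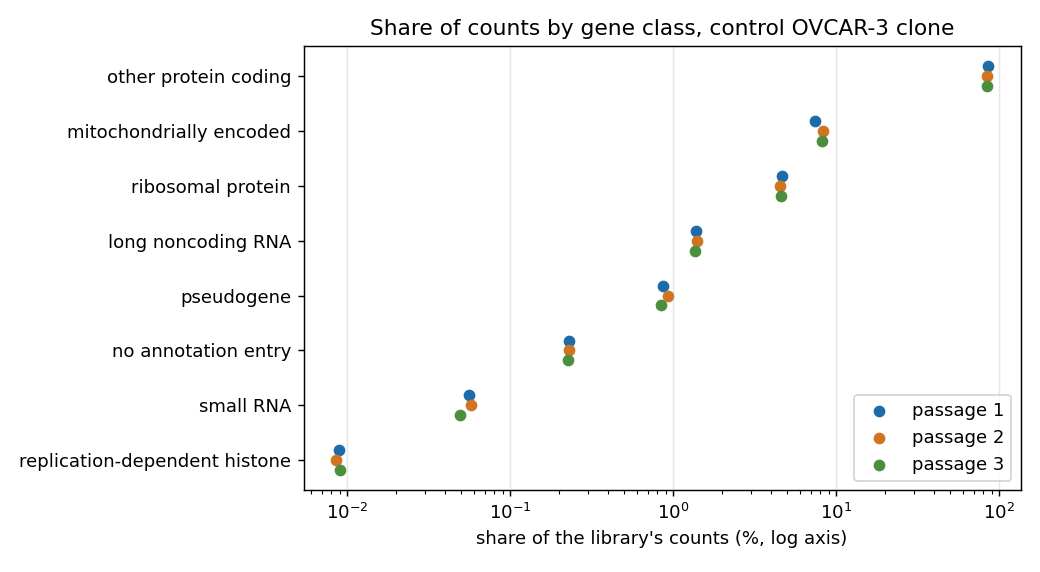
Share of each library's counts (percent, log axis) by gene class, with 1 point for each of the 3 passages of OV3/SCR. The points of a class lie close together, with mitochondrially encoded genes at 7.42% to 8.35% below the other protein-coding genes at 84.5% to 85.4%.

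The mitochondrial genome codes for subunits of 4 complexes of oxidative phosphorylation, and all 13 of its protein-coding genes lay above 1000 CPM. MT-ND4, a subunit of complex I, was the most abundant gene of the table by counts, with 363719, 423295 and 410981 counts or 15651 ± 1349 CPM. MT-CO1, the catalytic subunit of complex IV, followed with 291644, 310750 and 304055 counts or 11839 ± 464 CPM. Their ranges did not overlap. By complex, the 7 genes of complex I held 3.41% ± 0.282 of the counts, the 3 genes of complex IV 2.76% ± 0.0871, the 2 genes of complex V 0.727% ± 0.0545 and MT-CYB, the only gene of complex III in this genome, 0.646% ± 0.0892 (SD, n = 3). Per length, MT-CO3 at 36576 ± 645 TPM and MT-ND4 at 36503 ± 2587 TPM were the highest protein-coding genes, and their ranges overlapped.

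The mitochondrial genes did not move together between passages. MT-CYB had 140744, 182715 and 171103 counts, and MT-ND1, a complex I subunit, had 83872, 109956 and 101643, both lowest in passage 1. The ribosomal RNA gene MT-RNR1 had 23029, 18401 and 17355 counts and was highest in passage 1, whereas MT-RNR2, the large ribosomal RNA, had 80836, 80778 and 77947. Several of these values are uncertain as counts of single genes. MT-ND4 overlaps MT-ND4L and MT-ATP6 overlaps MT-ATP8, and MT-ND6 lies on the strand opposite to the other protein-coding genes. Nuclear copies of mitochondrial sequence share reads with the originals, and among the 5 pseudogenes with the most counts were MTCO3P12 (1184 ± 53.2 CPM), MTCO1P12 (1179 ± 25.4 CPM) and MTND4P12 (249.7 ± 20.4 CPM).

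Outside the mitochondrial genome, ribosomal proteins and abundant enzymes led, together with several genes that are not common to all cells. Of the 20 genes with the highest mean CPM, 10 were mitochondrially encoded and 10 were nuclear. The nuclear genes were RPS3 (4430.2 ± 31.7 CPM), RPS16 (4333 ± 40.9 CPM) and RPS2 (2407 ± 77.4 CPM) of the small ribosomal subunit, the glycolytic enzymes ENO1 (3821 ± 9.31 CPM) and PKM (3768 ± 40.9 CPM), the chaperone HSP90AA1 (3737 ± 65.4 CPM), ACTB, a cytoplasmic actin (3122 ± 25.3 CPM), and SPON1, LENG8 and CA2. SPON1, a secreted protein of the extracellular matrix, had 92278, 91411 and 91240 counts. CA2, a cytosolic carbonic anhydrase, had 75167, 72195 and 72967 counts. LENG8 had 83118, 81172 and 77829 counts. Each of these genes held its level within a few percent between passages, and the order by CPM was not resolved throughout, since 10 of the 19 neighbouring pairs among the 20 genes had overlapping ranges.

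Per length, 13 of the 20 highest protein-coding genes were mitochondrially encoded. Among nuclear protein-coding genes RPS16 was the highest, with 5362, 5089 and 5189 TPM, and CA2 was next at 4612 ± 147 TPM, with no overlap between their libraries. TMSB10, an actin monomer-binding thymosin, stood at 3599 ± 122 TPM and RPS2 at 3243 ± 160 TPM. GAPDH, a glycolytic enzyme, reached 2686 ± 60.0 TPM. SLPI, a secreted protease inhibitor, reached 2029 ± 86.7 TPM although it had only 376 ± 10.6 CPM, because its exons span few bases. PSMC4, an ATPase of the proteasome, stood at 2048 ± 21.96 TPM, FBL, the RNA methyltransferase fibrillarin, at 1971 ± 44.1 TPM and SPON1 at 2173 ± 36.2 TPM. Of the 20 highest nuclear genes per length, 8 coded for ribosomal proteins, and 10 of the 19 neighbouring pairs had overlapping ranges.

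**Figure D2:**
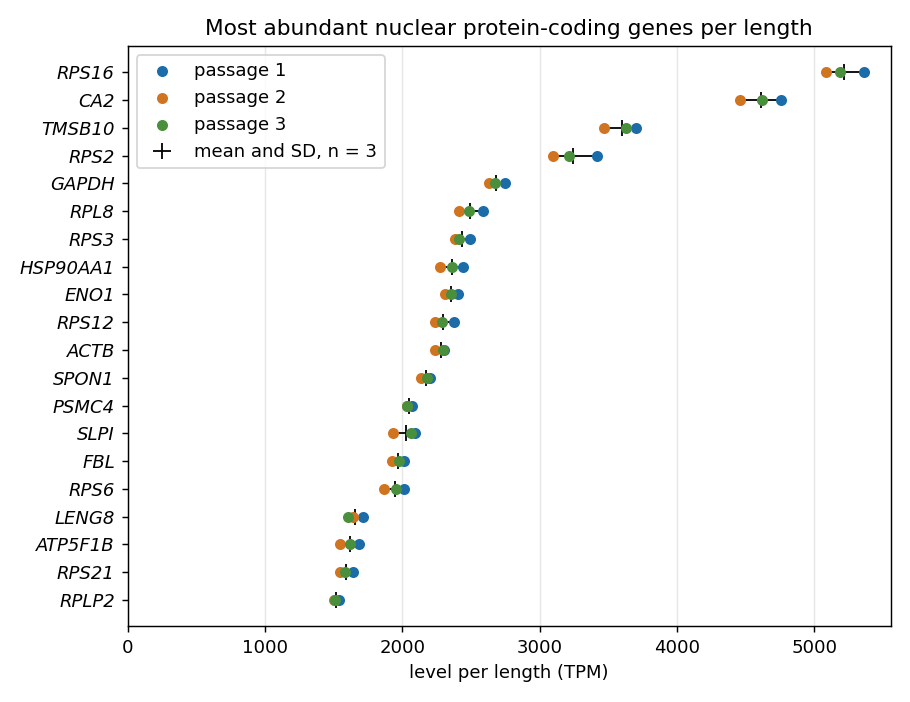
Level per length (TPM) of the 20 highest nuclear protein-coding genes, with 1 point per passage and the mean with SD (n = 3). RPS16 (5089 to 5362 TPM) and CA2 stand above the rest, and most of the lower neighbours overlap.

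The counts were spread over many genes below these leaders. The 20 highest genes held 10.7% of the counts and the 100 highest held 21.1%. A total of 949 genes were enough for 50% of the counts, 3077 for 75% and 5987 for 90%, and in single libraries 937 to 965 genes held 50%.

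**Figure D3:**
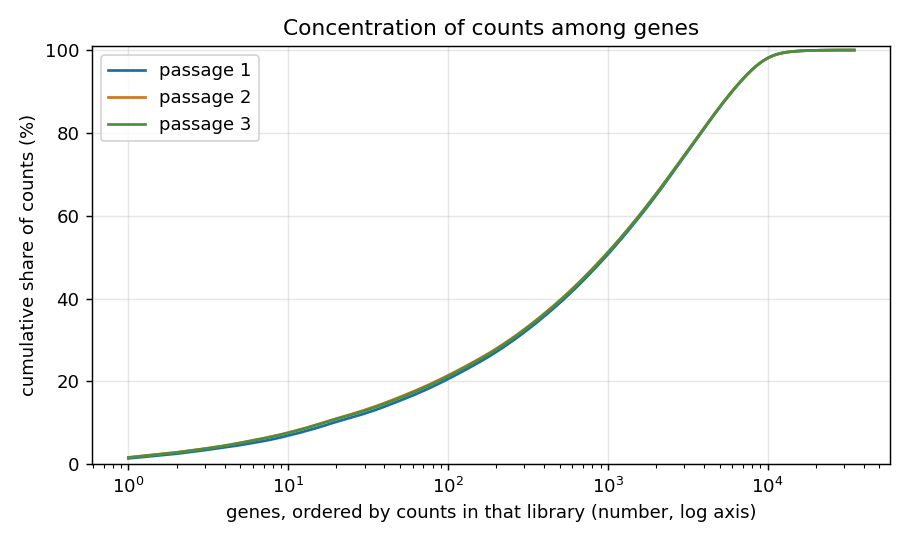
Cumulative share of counts (percent) against the number of genes, ordered by counts in each library (log axis), with 1 line per passage. The 3 lines nearly coincide and cross 50% at 937 to 965 genes.

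The ribosomal protein genes were present almost without exception and at similar levels. Of the 77 genes, 76 were present, with a median of 434 CPM. The 31 genes of the small subunit held 2.34% ± 0.0373 of the counts and the 46 genes of the large subunit 2.26% ± 0.0340 (SD, n = 3). RPL8 was the highest of the large subunit with 43988, 41941 and 42244 counts, or 2494 ± 89.1 TPM. RPL17 had only 26.3 ± 0.889 CPM. Its value is uncertain, since 27.6% of its exon length is shared with other listed genes, among them a read-through transcript.

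The 17 genes of glycolysis were all present, with a median of 575 CPM against 14.7 CPM over all protein-coding genes, and their sum was 15696 ± 48.5 CPM (SD, n = 3). By counts the lower steps led, with ENO1, PKM and GAPDH (2001 ± 11.2 CPM), followed by LDHA, which makes lactate, at 1471 ± 3.09 CPM and ALDOA at 1158 ± 27.5 CPM. Per length the hexokinases of the first step were far below these, with HK2 at 60.3 TPM and HK1 at 45.1 TPM, and so was the glucose transporter SLC2A1 at 38.3 TPM. Per length, GAPDH exceeded ENO1 (2357 ± 46.2 TPM), whereas by counts ENO1 exceeded GAPDH.

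Of 12 chaperone genes, 11 were present, with a median of 790.1 CPM. HSP90AA1 had 97910, 93543 and 94746 counts, the constitutive HSPA8 reached 2234 ± 60.2 CPM, and the endoplasmic reticulum chaperone HSP90B1 reached 1649 ± 14.4 CPM. The inducible HSPA1A had 4, 10 and 14 counts while its near-identical neighbour HSPA1B had 1841, 1807 and 1752. The split between these copies is uncertain, because reads that match both can be given to either or to none. All 18 cytoskeletal genes were present, with a median of 498 CPM. After ACTB, the actin-binding ACTN4 (1385 ± 12.9 CPM), the actin ACTG1 (1382 ± 10.9 CPM), the actin-binding FLNA (1197 ± 6.94 CPM) and the tubulin TUBB (1038 ± 14.9 CPM) led by counts.

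Translation elongation factors were present except for 1. EEF1A1, which brings tRNA to the ribosome, had 1517 ± 41.9 CPM and EEF2, which drives translocation, had 38823, 38059 and 37995 counts. EEF1G, a subunit of the same elongation complex, was at trace level with 24, 12 and 13 counts. Of its exon length, 99.7% is shared with another listed gene that had 59, 58 and 64 counts, and the part of this overlap in the low value was not tested.

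Of 13 genes of iron handling and oxidant defence, 12 were present. By counts the transferrin receptor TFRC led with 24532, 23951 and 23827 counts, or 944 ± 6.47 CPM. The peroxidase PRDX1 reached 467 ± 8.78 CPM, and the iron store subunits FTH1 and FTL reached 226 ± 6.99 and 177 ± 5.56 CPM. Per length PRDX1 was the highest at 893 TPM, and TFRC, whose exons are long, stood at 175 TPM. The exons of FTH1 overlap those of BEST1 over 63.2% of their length. The metallothionein MT1X was at trace level with 8, 20 and 14 counts.

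Antigen presentation genes were lower and unequal, with a median of 11.9 CPM over 15 genes, of which 13 were present. B2M, the shared light chain of class I molecules, had 292 ± 6.63 CPM. Among the heavy chains, HLA-E had 189 ± 2.36 CPM and HLA-C 139 ± 3.70 CPM, whereas HLA-B had 502, 454 and 442 counts (18.2 ± 1.07 CPM). Per length HLA-C stood at 179 TPM and HLA-B at 12.7 TPM. Reads of these genes depend on how closely the alleles of the line match the reference, which was not tested. The class II chains HLA-DRA (16, 16 and 10 counts) and HLA-DRB1 (4, 1 and 2 counts) were at trace level.

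Most listed markers of the labelled tissue were present, on lists chosen with earlier results of these data known. All 16 epithelial genes were present, with a median of 142 CPM. The simple keratins led, with KRT8 at 1540.5 ± 30.5 CPM (40627, 38791 and 38567 counts), KRT7 at 1068 ± 13.9 CPM, KRT19 at 966 ± 38.7 CPM and KRT18, the partner of KRT8, at 471 ± 0.708 CPM. Per length KRT19 was the highest of them at 1331 TPM. The adhesion molecule EPCAM had 11839, 11237 and 11444 counts (451 ± 9.42 CPM) and E-cadherin, CDH1, had 4420, 4346 and 4395 counts (172 ± 1.73 CPM). ESRP1 and GRHL2, a splicing factor and a transcription factor of epithelial cells, stood at 278 ± 2.98 and 126 ± 4.83 CPM. By counts the lowest of the list was the claudin CLDN3 at 13.4 ± 0.0668 CPM, and per length it was OCLN, a tight junction protein, at 13.5 TPM, against a median of 8.40 TPM over all protein-coding genes.

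Of 12 listed genes of Müllerian development, 10 were present, beside 72.7% of all listed protein-coding genes. The median of this list was 19.2 CPM and 15.3 TPM, against 14.7 CPM and 8.40 TPM over all protein-coding genes. PAX8 (chr2:113973574-114036498, GRCh37) had 19790, 20262 and 19370 counts, or 776 ± 16.02 CPM. Antisense transcripts share 22.4% of its exon length, and without strand their reads cannot be told from those of PAX8. The cell surface protein BCAM had 524 ± 14.0 CPM. The transcription factors EMX2, WT1 and SOX17 followed at 111 ± 2.57, 102 ± 3.89 and 98.5 ± 5.69 CPM. Of the homeobox genes, HOXB7, which the table calls RP11-357H14.19, had 9.75 ± 0.771 CPM, HOXA9 8.51 ± 0.273 CPM and HOXA10 2.22 ± 0.166 CPM. ESR1, the estrogen receptor, had 0, 2 and 1 counts and was absent, and LHX9 had 6, 2 and 0. PGR is not listed in the table and was not analysed here. It either had no count in any library of the study or was not matched in the annotation used.

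All 10 genes of antigens used in the diagnosis or targeting of serous tumors were present, with a median of 143 CPM. The phosphate transporter SLC34A2 (21829, 22920 and 21990 counts, 872 ± 26.1 CPM) and the copper-binding CP (573 ± 19.01 CPM) led by counts. MUC16, which codes for CA-125, had 5553, 5753 and 5315 counts (217 ± 7.84 CPM), mesothelin, MSLN, had 183 ± 2.34 CPM and WFDC2, the serum marker HE4, had 103 ± 2.09 CPM. Per length their order was turned, with WFDC2 at 248 TPM, MSLN at 228 TPM and the long MUC16 at 15.8 TPM. The folate receptor FOLR1 had 225, 225 and 226 counts (8.83 ± 0.105 CPM, 17.7 TPM). The kallikrein peptidases KLK6 and KLK7 had 8.29 ± 0.248 and 4.58 ± 0.843 CPM.

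All 14 genes of cell cycle control and of recurrent alteration in serous tumors were present, with a median of 86.3 CPM. MKI67, a marker of dividing cells, led by counts with 12924, 13751 and 13528, or 525 ± 20.8 CPM. Per length, cyclin E1, CCNE1 (chr19:30302898-30315219, GRCh37), was the highest at 299 TPM, with 5932, 5744 and 5834 counts (229 ± 3.00 CPM), and cyclin D1, CCND1, stood at 76.3 TPM. The inhibitor CDKN2A had 176 ± 9.79 CPM and RB1 had 40.2 ± 1.17 CPM. BRCA1 had 46.9 ± 0.679 CPM and BRCA2 had 25.6 ± 0.717 CPM. Copy number and sequence of these genes were not measured here.

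Over the epithelial, Müllerian and serous lists together, 36 of 38 listed genes (94.7%) were present, with a median of 109 CPM. Over 20 lists of other tissues and tumor types, 27 of 115 listed genes (23.5%) were present, 48 were at trace level and 40 were absent, of which 12 had no count in any of the 3 libraries, and the median was 0.222 CPM. Of all listed protein-coding genes 72.7% were present. A further 24 genes of those 20 lists are not listed in the table and were not analysed. Only genes with a count in some library of the study are listed. A missing gene therefore either had no count in any library or was not matched in the annotation used, which is not given. All of these shares are of listed genes, and counting missing genes as absent would lower them. The lists of germ cells (0 of 8), blood cells (0 of 7), muscle (0 of 4), adipose tissue (0 of 3) and mucinous or clear cell tumors (0 of 5) had no gene present. Among the absent genes were the germ cell genes DDX4, DAZL and FIGLA, the collagen COL3A1, the muscle factor MYOG and the steroidogenic enzyme CYP11A1, each with 0 counts in all 3 libraries. Albumin, ALB, had 0, 2 and 0 counts.

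**Figure D4:**
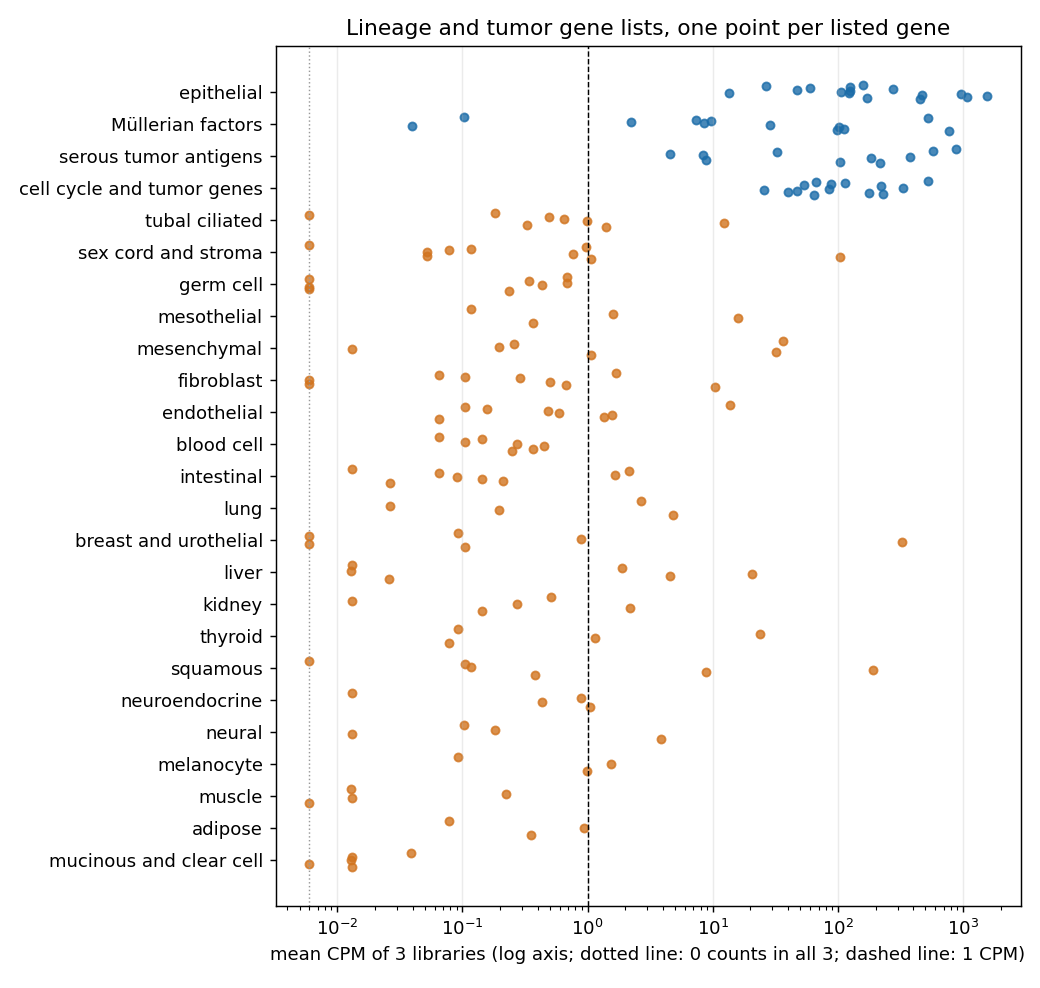
Mean CPM of the 3 libraries (log axis) for each listed gene of the lineage and tumor lists, with blue for the epithelial, Müllerian, serous and tumor gene lists and orange for other lists. The dashed line marks 1 CPM and the dotted line genes with 0 counts in all 3 libraries; 36 of 38 genes of the epithelial, Müllerian and serous lists lie right of the dashed line as present, against 27 of 115 of the other tissues (the mesenchymal list is drawn but not in that count).

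A few genes of other tissues were well above the floor, and 9 of the 27 reached 10 CPM. UPK1B, a tetraspanin of the bladder surface, had 8361, 8171 and 8315 counts, or 324 ± 4.21 CPM, whereas UPK2 was at trace level and UPK3A had 0 counts in all 3 libraries. UPK3B, listed for the mesothelium, had 15.8 ± 0.770 CPM. KRT6A, a keratin of stressed squamous epithelium, had 5005, 4872 and 4623 counts (189 ± 5.85 CPM) beside KRT5 at 8.83 ± 0.672 CPM, while the squamous factor TP63 had 11, 9 and 9 counts and KRT14 had 3, 4 and 2. AMH, the hormone that makes the Müllerian duct regress in males, had 2781, 2562 and 2638 counts (104 ± 3.71 CPM), while its receptor AMHR2 had 1, 2 and 1 counts. Exons of no other listed gene overlap those of UPK1B, KRT6A or AMH in the annotation. Overlap in position does not cover reads that match similar genes elsewhere, whose handling is not given.

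The other genes of this kind at or above 10 CPM were TSHR, the thyrotropin receptor (23.7 ± 0.774 CPM), SERPINA1, the antitrypsin of liver (20.5 ± 0.777 CPM), the transcription factor ERG (13.8 ± 1.10 CPM), CAPS (12.4 ± 0.724 CPM) and the collagen COL1A1 (10.4 ± 0.204 CPM). The other genes of their lists were mixed. Thyroglobulin, TG, had 3, 3 and 0 counts beside TSHR. The endothelial cadherin CDH5 had 1, 1 and 3 counts beside ERG, while the endothelial receptor KDR had 45, 38 and 38 and VWF, the von Willebrand factor, had 40, 25 and 38. HNF4A, a factor of hepatocytes, had 1, 0 and 0 counts beside SERPINA1, while the apolipoprotein APOA1 had 113, 108 and 128. Beside COL1A1, COL1A2 had 17, 10 and 24 counts and FAP had 39, 46 and 44. Of the ciliated cell genes, FOXJ1 had 41, 30 and 36 counts and TEKT1 had none.

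The remaining 18 present genes of other tissues lay between 1 and 10 CPM. They included FOXJ1 (1.40 ± 0.208 CPM), FOXL2 (1.06 ± 0.198), LRRN4 (1.61 ± 0.198), FAP (1.69 ± 0.153), KDR (1.58 ± 0.144), VWF (1.34 ± 0.317), LGALS4 (2.13 ± 0.281) and NKX2-1 (4.84 ± 0.749). Others were NAPSA (2.65 ± 0.230 CPM), APOA1 (4.56 ± 0.441), AFP (1.87 ± 0.0612), AQP2 (2.17 ± 0.0981), KRT5, CHGA (1.05 ± 0.233), RBFOX3 (3.89 ± 0.384) and PMEL (1.54 ± 0.178). The exons of NAPSA are shared with NR1H2 over 33.0% of their length.

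Mesenchymal genes were mixed. N-cadherin, CDH2, had 943, 929 and 892 counts (36.1 ± 0.714 CPM) and fibronectin, FN1, had 831, 793 and 832 (32.1 ± 0.913 CPM). Per length CDH2 stood at 13.5 TPM and the long FN1 at 5.99 TPM, above and below the median of 8.40 TPM over all protein-coding genes. The intermediate filament gene VIM had 29, 32 and 20 counts, just above the limit for presence at 1.06 ± 0.239 CPM. Of the transcription factors in this list, ZEB1 had 0, 0 and 1 counts, ZEB2 11, 3 and 1 and TWIST1 10, 5 and 5. Per length, CDH1 stood at 91.0 TPM and exceeded CDH2.

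Because the study concerns COX-1, the genes of prostaglandin synthesis and its receptors were listed as well. PTGS1, which codes for COX-1 (chr9:125132809-125157982, GRCh37), had 713, 658 and 641 counts, or 26.3 ± 1.22 CPM and 14.6 TPM. PTGS2, which codes for COX-2 (chr1:186640923-186650054), had 2, 0 and 2 counts and was absent. Of the 3 prostaglandin E synthases, PTGES3, which is also the HSP90 co-chaperone p23, had 651 ± 1.56 CPM, PTGES2 had 98.4 ± 1.40 CPM and the inducible PTGES had 7, 3 and 4 counts. The receptors PTGER2 (102, 111 and 124 counts) and PTGER4 (69, 56 and 60 counts) were present at 4.404 ± 0.476 and 2.41 ± 0.243 CPM, and PTGER1 and PTGER3 were at trace level.

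Long noncoding transcripts were led by RNAs that stay in the nucleus. MALAT1 had 41489, 43201 and 38179 counts (1604 ± 92.2 CPM) and NEAT1, the scaffold of paraspeckles, had 33558, 34957 and 31890 (1311 ± 55.4 CPM). SNHG1, a host gene of small nucleolar RNAs, had 473 ± 8.92 CPM and NORAD had 405 ± 7.42 CPM. Of 8005 listed long noncoding RNA genes 1295 were present, and of 6371 pseudogenes 479. Besides the mitochondrial copies, the highest pseudogenes were a ribosomal RNA fragment that the table calls RN28S1, at 1983 ± 388 CPM, and DUXAP9 at 177 ± 4.24 CPM. Of 28 replication-dependent histone genes 11 were present, and H2BC12 led with 820, 852 and 875 counts (33.3 ± 1.40 CPM).

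The passages were nearly alike. For the 9743 present genes with a mean of at least 10 CPM, the median coefficient of variation (CV) over the 3 libraries was 2.94%. The counting error of 1 library, the inverse square root of the mean count, had a median of 2.93%. A CV from 3 values tends to lie below the true one, so these medians cannot be compared directly. The CV exceeded the counting error for 54.2% of these genes. The CV was below 10% for 98.3% of them and above 20% for 4. Among the 2286 genes of at least 100 CPM, the median was 1.83% beside 1.53% from counting error. The common biological coefficient of variation estimated by edgeR over 14563 genes was 2.19%. The libraries were not copies of each other, since the chi-square per degree of freedom between pairs was 2.91, 2.22 and 1.74, where sampling noise alone gives about 1. By class, the median CV was 2.03% for ribosomal protein genes, 2.93% for other protein-coding genes, 3.89% for long noncoding RNA genes and 6.13% for mitochondrially encoded genes.

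The genes that varied most between passages belonged largely to ribosomal RNA and its precursor loci. RN28S1 had 49896, 61020 and 41013 counts, RN18S1 had 1308, 997 and 578, and the small RNA genes MIR3648 and MIR3687, which lie in repeats of ribosomal DNA, had 760, 925 and 535 and 382, 510 and 264. MIR663AHG, a long noncoding RNA gene, had 2090, 2719 and 1653 counts. All 5 were lowest in passage 3, and all but RN18S1 were highest in passage 2. Among the next were RPS6KA5, a kinase (219, 259 and 312 counts), FBXL15 (365, 249 and 305), AC079949.1 (690, 633 and 478) and NENF (346, 321 and 425), which did not share 1 order. No protein-coding nuclear gene of at least 10 CPM had a CV above 18.7%.

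**Figure D5:**
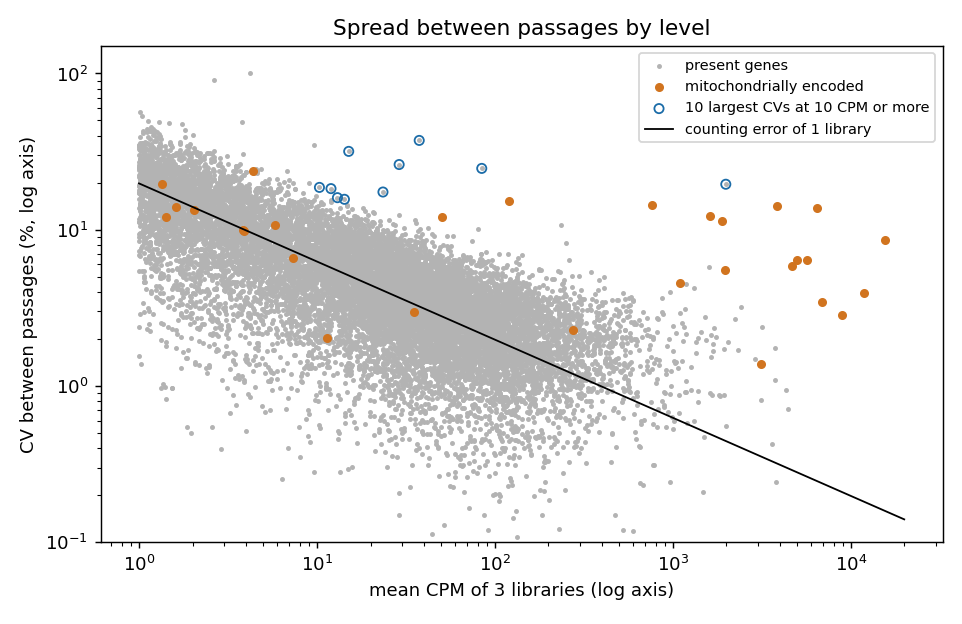
Coefficient of variation over the 3 passages (percent, log axis) against mean CPM (log axis) for present genes, with mitochondrially encoded genes in orange, the 10 largest values at or above 10 CPM circled and the counting error of 1 library as a line. Most genes scatter around the line, with a median of 2.94% at or above 10 CPM, and mitochondrially encoded genes of more than 1000 CPM lie above it.

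Promoters of abundant genes were richer in CpG, the dinucleotide at which DNA is methylated. For 16878 of 17153 nuclear protein-coding genes the sequence from 250 bases before to 50 bases after the start of the canonical transcript was read from GRCh37, and a promoter was counted as CpG-rich where CG occurred at 0.6 or more of the frequency that its C and G content gives. CpG-rich promoters made up 36.2% of those of absent genes (95% Wilson interval 34.1 to 38.4), 44.4% at trace level, and 69.4%, 84.5%, 90.5%, 94.3% and 94.4% in 5 equal classes of present genes from the lowest to the highest CPM, against 74.4% of all. Neighbouring intervals did not overlap except for those of the 2 highest classes, which overlapped. These intervals cover counting error only, and genes share sequence and are not replicates.

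The motif TATAAA on the coding strand, the core of the TATA box, was found in 5.31% of all these promoters, and in 7.41% when both strands were searched. It was found in 11.5% of promoters of absent genes (10.2 to 13.0), 9.49% at trace level, 5.84% in the lowest class of present genes and 2.26% in the class below the highest (1.74 to 2.92). In the highest class the share was 3.99% (3.29 to 4.83), and among the 100 most abundant nuclear protein-coding genes it was 11.1% (6.32 to 18.8). A match of these letters is a description and not a functional site.

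A set of 4 promoters shows the range of CG content. RPS16, the highest nuclear protein-coding gene per length, and CCNE1 have many CG pairs, PAX8 was abundant with few, and MYOG had 0 counts in all 3 libraries. The sequences are from RefSeq in GRCh38.p14, from 250 bases before to 50 bases after the start, 5′ to 3′ on the coding strand, with every CG in capitals. That of RPS16 is chr19:39435900-39436199 on the minus strand, that of CCNE1 chr19:29811741-29812040 on the plus strand, that of PAX8 chr2:113278872-113279171 on the minus strand and that of MYOG chr1:203085963-203086262 on the minus strand.
RPS16: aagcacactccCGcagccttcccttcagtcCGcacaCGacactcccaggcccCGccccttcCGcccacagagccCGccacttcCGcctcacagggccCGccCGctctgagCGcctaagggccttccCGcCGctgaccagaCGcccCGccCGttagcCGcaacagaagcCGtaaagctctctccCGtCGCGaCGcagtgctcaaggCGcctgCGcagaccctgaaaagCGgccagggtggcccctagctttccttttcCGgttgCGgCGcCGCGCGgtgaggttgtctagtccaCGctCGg
CCNE1: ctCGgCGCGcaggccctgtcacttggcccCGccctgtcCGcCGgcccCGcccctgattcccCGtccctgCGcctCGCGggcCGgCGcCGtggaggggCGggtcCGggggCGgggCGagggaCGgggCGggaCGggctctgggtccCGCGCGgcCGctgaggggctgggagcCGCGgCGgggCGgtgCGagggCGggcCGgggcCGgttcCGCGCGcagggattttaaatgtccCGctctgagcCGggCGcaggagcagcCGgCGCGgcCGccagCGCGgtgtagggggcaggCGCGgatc
PAX8: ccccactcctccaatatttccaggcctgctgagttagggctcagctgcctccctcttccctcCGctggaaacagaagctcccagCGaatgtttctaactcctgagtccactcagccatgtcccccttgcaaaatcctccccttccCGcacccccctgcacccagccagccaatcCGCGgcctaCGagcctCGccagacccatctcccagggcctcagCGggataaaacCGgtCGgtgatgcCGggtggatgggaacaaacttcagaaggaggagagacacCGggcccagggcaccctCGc
MYOG: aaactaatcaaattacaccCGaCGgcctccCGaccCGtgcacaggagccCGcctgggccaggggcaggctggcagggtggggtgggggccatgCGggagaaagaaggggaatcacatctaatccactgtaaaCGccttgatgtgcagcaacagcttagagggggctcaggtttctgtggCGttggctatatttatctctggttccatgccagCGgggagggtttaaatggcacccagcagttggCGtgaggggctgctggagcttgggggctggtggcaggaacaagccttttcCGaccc
The promoter of RPS16 holds 32 CG pairs (0.96 of the frequency its base content gives) and that of CCNE1 47 (0.97). That of PAX8 holds 13 (0.48) and falls under the limit of 0.6, as does that of MYOG with 11 (0.43), although PAX8 had 776 CPM and MYOG no count.

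Levels were also described along the chromosomes, without a test. In windows of 20 consecutive nuclear protein-coding genes, the median level of a window was 8.61 TPM over 16716 windows. The highest window lay on chromosome 19 from LRFN1 to PSMC4 (chr19:39797206-40487671, GRCh37), with a median of 205 TPM and 201 to 211 TPM in single libraries. Of its 20 genes, 13 lay at or above 100 TPM, against 7.24% of all nuclear protein-coding genes, and the window held 1.30% of all counts. The window was picked as the highest, so these values describe it and test nothing.

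The genes of this window differ in function. Beside RPS16 they include SUPT5H, a transcription elongation factor (46115, 44989 and 43435 counts, 660 ± 21.0 TPM), PAF1, of the elongation complex named after it (795 to 811 TPM), MED29, a Mediator subunit (437 ± 9.83 TPM), FBL, PSMC4, TIMM50 of the mitochondrial import machinery (328 ± 9.12 TPM) and the kinase DYRK1B (219 ± 3.29 TPM). Of the genes in between, 3 were below 1 CPM, with GMFG at 10, 11 and 16 counts, CLC at 1, 0 and 0, and FCGBP at 28, 26 and 22. The next highest windows that were ranked lay on chromosome 8 from GFUS to SHARPIN (chr8:144694788-145163027), at 98.1 TPM, and on chromosome 19 from ZNF331 to RPS9 (chr19:54022781-54752862), at 93.0 TPM. DNA copy number was not measured in these libraries, and its part in these levels was not tested.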

How the data were processed

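Cells of OV3/SCR were harvested as 3 independent populations, RNA was isolated with the RNeasy kit, and libraries were made with the Illumina TruSeq RNA kit. By the methods of the study, TopHat2 served for alignment to hg19 (GRCh37) and HTSeq for assigning reads to genes. The values deposited by the authors are unnormalized counts. The kit does not mark strand. The annotation, the strand setting and the handling of reads that match several genes are not given in the sources used here. The table holds 6 libraries, and only genes with a count in at least 1 of them are listed. The submission notes also name DESeq2; here DESeq2 1.42.0 gave alternative size factors only.

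CPM were computed by library total. Exon lengths, gene types and positions were taken from GENCODE 44 lifted to GRCh37, which matched 33556 genes by identifier and 162 by symbol. The other 1093, with 0.227% of the counts, had no length and no TPM. Some genes, among them HOXB7 and NORAD, are named as in this annotation and otherwise in the table. Joined exons lengthen genes with many isoforms and lower their TPM. Spread was described with R 4.3.3, edgeR 4.0.16 (intercept only, with library totals) and Python 3.11.15, after tests on simulated data. There was 1 group, so no test was made and no p-value is given.

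Genes named are the 20 highest by CPM, the 20 highest protein-coding genes per length (exon length at least 200 bases), the 5 highest long noncoding RNA genes and pseudogenes, the 10 largest CVs at or above 10 CPM, and members of fixed lists. The nuclear order per length, the histone genes and the chromosome windows were added after the values were seen. Some genes that these rules name are not reported here by name, and they remain in the counts of their lists. The libraries, gene lists and rules were chosen with earlier results of these data known. Promoter features were read from the genome because the RefSeq promoter table covers too few of the genes, and that table gave the printed sequences only. Alternatives covered the scaling, the limits for presence, the length used and leaving out each library.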

Additional observations from a re-analysis of the deposited data

How the results depend on the processing

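No paired analysis was possible because the result comes from no test, and 1 group alone was described. Of 64 repeated values, 45 stayed within the spread between libraries, the counting interval of a share or, for a count, 1.5 times, and 19 were called moved. Leaving out 1 of 3 libraries cannot shift a class share by its SD, so those values stayed by construction. The values of the chromosome 19 window were called moved without a limit. The tally is therefore no measure of robustness. TMM and RLE size factors kept all 20 of the most abundant genes and gave a median CV of 2.88% with each. Ordering all genes per length kept 13 of the 20, and taking the longest transcript as the length kept 18 of the 20 highest protein-coding genes per length. Without the mitochondrially encoded counts in the total, other protein-coding genes held 92.2%, ribosomal protein genes 4.99%, long noncoding RNA genes 1.498% and pseudogenes 0.956%. Per length these shares were 55.4%, 5.11%, 1.54% and 4.16%, with 31.6% mitochondrially encoded. With at least 1 count in any library, 32490 genes were detected. At a mean of at least 5 CPM, 10 of the genes of other tissues were present (40 at 0.5 CPM). The median CV was 4.02% for genes of at least 1 CPM and 1.83% for genes of at least 100 CPM. Leaving out each library in turn gave a mitochondrial share of 7.81% to 8.27% and 19957 to 20034 detected genes. With 1 library fewer to pass, the number of detected genes cannot fall below the 19431 of all 3 libraries. The same step left 36 present genes of the own lineage and 28 of other tissues. The median CV was then 2.26% to 2.59%, where a CV from fewer libraries tends to be lower by itself. The chromosome 19 window had a median of 334 TPM with 10 genes and 74.0 TPM with 40 genes, both sizes chosen after seeing the data. With 10 genes, the window from OSCAR to RPS9 on the same chromosome was higher, at 348 TPM.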
